A study of Mus musculus with 6 samples.

Results

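The mitosis genes described here are 50 genes whose products build the spindle, attach it to the chromosomes, time the separation of the chromatids and divide the cell. They were chosen by name from the 46078 genes in the table of read counts. All 50 had 10 or more counts in at least 3 libraries and all 50 passed the filter of the test, so none is missing from the values below. RNA was sequenced from C2C12 cells, an immortalized line of mouse myoblasts that stop dividing and fuse into myotubes when serum is reduced. The KO cells (genotype label hnrnpa2b1 KO) had been transfected with Cas9 and a guide against *Hnrnpa2b1*, which encodes an RNA-binding protein, and selected with puromycin. The WT cells kept the gene. A legend of the paper names myoblasts treated with a scrambled guide as the control of its Western blot. Whether the WT cells sequenced here had that treatment is not stated. Both groups were differentiated for 2 days by serum withdrawal with an ITS supplement, and each gave 3 libraries (KO1, KO2 and KO3, and WT1, WT2 and WT3), whose values are given in this order throughout. The methods describe clonal populations of each genotype and do not say which clone gave which library, so that p-values measure the spread between these libraries.

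A cell enters mitosis when cyclin-dependent kinase 1 binds a B-type cyclin and loses its inhibitory phosphates, and it leaves when the anaphase-promoting complex marks securin and the cyclins for destruction. RNA of most of these genes rises together late in the cell cycle and is low in cells that have left it. Differentiating myoblasts withdraw from the cycle before they fuse, and the nuclei of a myotube do not divide.

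Levels are given as CPM, the counts of a gene relative to the library total after TMM scaling (edgeR's trimmed mean of M-values), and p-values are from edgeR, adjusted over all tested genes, unless another tool is named. The targeted gene *Hnrnpa2b1* had 159, 195 and 249 CPM in the KO libraries, and 225, 229 and 252 CPM in the WT libraries. KO1 and KO2 were below every WT library and KO3 was within the WT range, with a log2 fold change of KO over WT of −0.23 (standard error, SE, 0.18, edgeR quasi-likelihood test, adjusted p = 0.381). The RNA therefore does not separate the genotypes, which are used as the labels give them, and the protein was not analysed here. The methods report that knockout of the clonal populations was established by immunofluorescence and Western blotting for the protein. Depth was 33605258 to 40558740 counted reads per library. KO1 stood apart from KO2 and KO3. *Myh3*, an embryonic myosin of new myotubes, had 4146, 1007 and 1423 CPM in the KO libraries and 4474 to 5811 CPM in WT. *Mymk*, which drives myoblast fusion, had 823, 302 and 269 CPM in the KO libraries and 419 to 479 CPM in WT. The muscle genes *Myod1*, *Myog*, *Des* and *Cdh15* had at least 96.0 CPM in every library. Other muscle genes were lower, with 17.1, 2.34 and 1.17 CPM of *Mef2c* in KO and 80.8, 162 and 189 in WT. *Myf5* had 4.92, 11.8 and 4.27 CPM in KO and 16.1, 24.7 and 18.7 in WT. Of 10 muscle markers, 4 passed the threshold (*Myod1* and *Cdh15* higher, *Myf5* and *Mef2c* lower in KO, against 22.7% of all tested genes), and without KO1 8 passed, 2 higher and 6 lower (30.6% of all tested genes). The summed level of the 10 was 17870, 8057 and 7271 CPM in the KO libraries and 12460 to 15310 CPM in WT. Of the markers of other cells, *Cd3e* had 0 counts, *Ptprc* had at most 5, *Pecam1* at most 3, *Epcam* at most 1 and *Adipoq* at most 1. Others on the same lists had more, with 61 to 124 counts of the immune marker *Cd68* and 3 to 129 of the epithelial marker *Krt14*. The endothelial markers *Kdr* and *Vwf* had 2 to 51 and 4 to 76 counts. *Cdh1*, another epithelial marker, had 79 counts in KO1 and 1 to 6 in the other libraries. All 4 tested genes of the 6 fibroblast and adipocyte markers (*Cd34*, *Pdgfra*, *Dpt* and *Pi16*) were higher in KO, with a summed level of 145 to 287.5 CPM against 46.2 to 64.0 CPM in WT. Of the other markers, 1 of 1 tested epithelial gene was higher (*Krt14*, at most 3.61 CPM), 1 of 3 tested endothelial genes was lower and 0 of 1 tested immune gene passed (edgeR, with 0 at an unadjusted p under 0.05). The part of these differences in the values of the mitosis genes was not tested.

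Promoters of mitosis genes are known to carry the cell cycle genes homology region, in most cases the letters TTTGAA, which the MuvB complex binds, together with CCAAT boxes, which NF-Y binds. RefSeq windows on GRCm38.p6, from 250 bases before to 50 bases after each transcription start, were matched by symbol for 42 of the 50 genes and searched for both motifs on both strands. TTTGAA was found in 31 of the 42 (73.8%), against 14.1% of the 10041 tested genes with a window and 39.0% of 100 other mitosis genes with one. CCAAT was found in 31 (73.8%), against 43.1% of tested genes, 56.0% of the other mitosis genes and 62.9% of S phase genes. Both motifs were found in 27 (64.3%), against 5.82%, 25.0% and 8.57%. The motifs can share at most 1 letter, and a match is a description, not a site of binding. Stretches of 150 bases upstream of the start of 6 genes are given here because they show the motifs in genes that are central to mitotic entry and exit (*Cdk1*, *Ube2c*) and in genes that passed the threshold without KO1 (*Kif11*, *Top2a*, *Mki67*), and, in *Nuf2*, a gene that also passed it and holds neither motif. Each stretch ends at the base before the transcription start that its window is set on, except that the nearest 10 bases in *Top2a* and 71 bases in *Mki67*, which lie inside a longer RefSeq model, were left out. The deposited gene positions start *Cdk1* at 69352938 and *Ube2c* at 164769898. By these positions, the ends of their stretches, with the last marked motif, lie inside the genes. They are written 5′ to 3′ on the strand of the gene, with TTTGAA (on the opposite strand TTCAAA) and the box CCAAT (on the opposite strand ATTGG) in capitals. Their positions are chr10:69352913-69353062 (minus strand) for *Cdk1*, chr2:164769779-164769928 (plus strand) for *Ube2c*, chr19:37376232-37376381 (plus strand) for *Kif11*, chr11:99024200-99024349 (minus strand) for *Top2a*, chr7:135716451-135716600 (minus strand) for *Mki67* and chr1:169531465-169531614 (minus strand) for *Nuf2*.
Cdk1: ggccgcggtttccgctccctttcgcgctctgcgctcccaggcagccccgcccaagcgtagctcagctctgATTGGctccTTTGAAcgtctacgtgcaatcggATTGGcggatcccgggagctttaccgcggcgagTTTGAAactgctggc
Ube2c: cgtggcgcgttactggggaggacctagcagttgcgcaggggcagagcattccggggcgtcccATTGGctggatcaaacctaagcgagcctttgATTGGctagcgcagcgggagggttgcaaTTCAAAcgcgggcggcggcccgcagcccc
Kif11: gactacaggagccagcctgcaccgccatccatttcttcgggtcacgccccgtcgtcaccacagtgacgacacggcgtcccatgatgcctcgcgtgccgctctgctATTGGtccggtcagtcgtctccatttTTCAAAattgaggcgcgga
Top2a: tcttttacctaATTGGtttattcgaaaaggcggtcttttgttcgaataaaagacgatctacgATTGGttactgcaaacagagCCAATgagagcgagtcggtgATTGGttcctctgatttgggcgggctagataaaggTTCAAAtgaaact
Mki67: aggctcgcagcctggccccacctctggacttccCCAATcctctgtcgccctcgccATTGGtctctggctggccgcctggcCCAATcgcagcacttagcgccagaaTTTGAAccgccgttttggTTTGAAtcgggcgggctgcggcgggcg
Nuf2: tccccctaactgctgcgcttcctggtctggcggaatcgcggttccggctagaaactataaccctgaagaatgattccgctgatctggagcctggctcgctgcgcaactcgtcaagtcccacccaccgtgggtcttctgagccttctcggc

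Across the 50 genes, the KO libraries lay on both sides of the WT libraries. KO1 was the lowest KO library in 48 genes, all but *Cdc25b* and *Bub3*, and was below every WT library in 39. KO2 was above every WT library in 41 genes and KO3 in 32. Over all 14828 tested genes, KO1 was the lowest KO library in 34.2%, KO1 was below every WT library in 35.6%, KO2 was above every WT library in 39.3% and KO3 in 41.1%. The median over the 50 genes of the log2 ratio to the WT mean was −0.49, 0.51 and 0.36 for the KO libraries and −0.12, −0.10 and 0.23 for the WT libraries. In all tested genes the same medians were 0.02 in each KO library and at most 0.005 in a WT library. The 50 genes took 0.0998%, 0.198% and 0.177% of the counted reads in the KO libraries and 0.120%, 0.124% and 0.143% in the WT libraries. KO2 exceeded KO1 by a median of 1.98-fold (1.18-fold to 2.61-fold) and KO3 exceeded KO1 by a median of 1.73-fold (0.942-fold to 2.49-fold). In 31 genes both KO2 and KO3 were above every WT library (29.8% of all tested genes). In bulk RNA, fewer dividing cells and less RNA per dividing cell cannot be told apart.

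**Figure D1:**
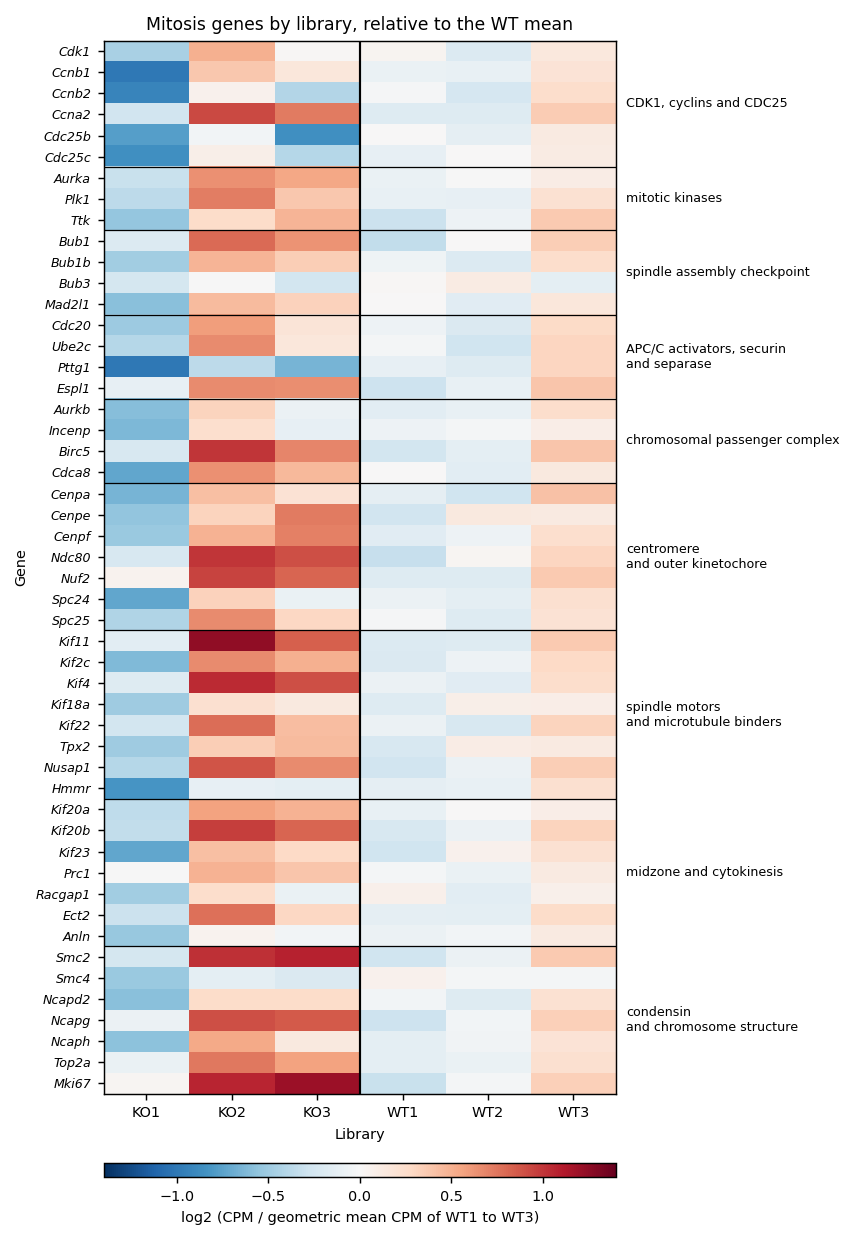
Each cell shows the log2 ratio of a gene's CPM to the geometric mean of the 3 WT libraries, for 50 mitosis genes (vertical axis, grouped by role) in 6 libraries (horizontal axis), with red above and blue below the WT mean. KO1 is the lowest KO library in 48 genes, KO2 is above every WT library in 41 and WT3 is the highest WT library in 47. Over all tested genes these shares are 34.2%, 39.3% and 31.3%.

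Taken as 3 KO libraries against 3 WT libraries, no mitosis gene passed the threshold. Of the 50 genes, 0 had an adjusted p-value under 0.05 in edgeR, where 22.7% of all tested genes passed, 12.1% higher and 10.6% lower in KO. At an unadjusted p-value under 0.05, 3 of the 50 differed (*Mki67*, *Nuf2* and *Pttg1*), against 39.0% of all tested genes. Limma-voom also called 0 of the 50 (22.7% of all genes), and DESeq2 called 2, *Mki67* higher and *Pttg1* lower (29.5% of all genes). The median log2 fold change was 0.21, against 0.03 over all tested genes, with 36 genes above 0 and 14 below. Without KO2 it was 0.004, with 25 above and 25 below, and without KO1 it was 0.42, with 42 above and 8 below. It was 0.11 without KO3 (30 above, 20 below), 0.13 without WT1 (32 above, 18 below) and 0.34 with library totals in place of TMM (42 above, 8 below), where the median of all genes was 0.15. The 95% interval of the fold change lay within 2-fold in either direction in 33 of the 50 genes and reached beyond it in 17. The KO and WT ranges of CPM did not overlap in 2 of the 50 genes, *Pttg1* and *Smc4*, whereas they did not overlap in 44.3% of all tested genes. In the deposited TPM values (relative abundances corrected for transcript length) the ranges of both genes overlapped. The median SD of log2 CPM between KO libraries was 0.53 for the mitosis genes and 0.28 for all tested genes. Between WT libraries the SD was 0.21 and 0.19.

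The count of mitosis genes past the threshold rested on KO1. With KO2 and KO3 alone against WT, 17 of the 50 genes were higher in KO and 0 were lower, and 15.5% of 15409 tested genes were higher. The 17 were *Ccna2*, *Aurka*, *Bub1*, *Birc5*, *Cenpf*, *Ndc80*, *Nuf2*, *Kif11*, *Kif4*, *Nusap1*, *Kif20a*, *Kif20b*, *Prc1*, *Smc2*, *Ncapg*, *Top2a* and *Mki67*, with log2 fold changes of 0.43 (*Prc1*) to 1.10 (*Mki67*). Their roles run from S phase and mitotic entry to cytokinesis. Without KO2, 2 of the 50 were lower, *Pttg1* and *Cdc25b* (8.29% of all genes were lower), and without any one of the other 4 libraries 0 of the 50 passed. In those fits the share of all genes that passed was 13.9% without KO3, 6.01% without WT1, 13.6% without WT2 and 8.43% without WT3. Without a filter on low counts, 6 of the 50 passed with all libraries, 5 higher and 1 lower (15.0% of 30252 genes).

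**Figure D2:**
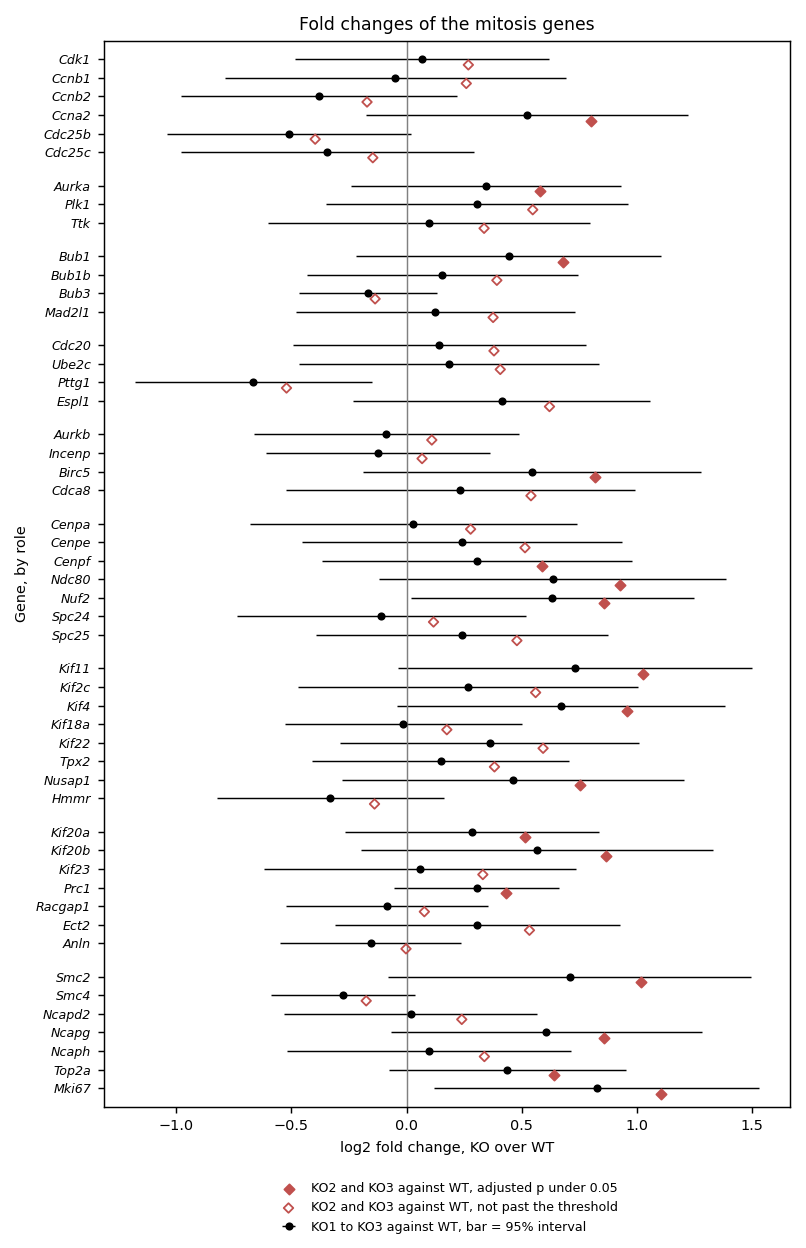
Log2 fold changes of KO over WT (horizontal axis) for the 50 genes, grouped by role (vertical axis), with black points and 95% intervals for all 3 KO libraries and diamonds for KO2 and KO3 alone, filled where the adjusted p is under 0.05. Intervals cross 0 in all genes but *Pttg1*, *Nuf2* and *Mki67*, and 17 diamonds are filled, all to the right of 0.

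Among the regulators of mitotic entry, *Cdk1*, the kinase itself, had 17.9, 34.7 and 24.9 CPM in KO and 25.2, 21.6 and 27.2 in WT. Its KO libraries ran from below to above the WT range, with a log2 fold change of 0.07 (SE 0.24, adjusted p = 0.858). *Ccna2* encodes cyclin A, which acts in S phase and at mitotic entry. It had 30.7, 70.3 and 61.3 CPM in KO and 32.8, 32.9 and 47.5 in WT. KO2 and KO3 were above every WT library and KO1 was below, with a log2 fold change of 0.52 (SE 0.30, adjusted p = 0.238) and of 0.80 without KO1 (adjusted p = 0.0163). Leaving out KO2 gave 0.295 (adjusted p = 0.527). The B cyclins are the partners of CDK1 in mitosis. *Ccnb1* had 10.05, 26.1 and 22.5 CPM in KO and 18.9, 18.7 and 23.02 in WT, and *Ccnb2* had 9.65, 19.1 and 13.8 CPM in KO and 18.2, 15.5 and 21.8 in WT. Both overlapped between the genotypes, with log2 fold changes of −0.05 and −0.38. *Cdc25b*, a phosphatase that removes the inhibitory phosphates of CDK1, had 17.9, 29.8 and 16.9 CPM in KO and 30.6, 28.0 and 33.4 in WT. KO1 and KO3 were below every WT library and KO2 was within the WT range, with a log2 fold change of −0.51 (SE 0.23, adjusted p = 0.141) and of −0.81 without KO2 (adjusted p = 0.0171). *Cdc25c*, its relative, gave −0.34 (SE 0.28).

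None of the 3 mitotic kinases passed the threshold with all libraries. *Aurka*, the Aurora kinase of the spindle poles, had 8.17, 15.8 and 14.8 CPM in KO and 9.52, 10.1 and 10.9 in WT, with a log2 fold change of 0.34 (SE 0.25, adjusted p = 0.350). KO1 was the lowest and KO2 and KO3 the highest of the 6 libraries, and without KO1 the log2 fold change was 0.58 (adjusted p = 0.0324). Leaving out KO2 gave 0.18 (adjusted p = 0.663). *Plk1*, a kinase of spindle assembly and mitotic entry, gave 0.31 (SE 0.28), and *Ttk*, the checkpoint kinase known as Mps1, gave 0.10 (SE 0.30).

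In the spindle assembly checkpoint, which delays anaphase until every kinetochore is attached, *Bub3* had the most reads and varied least. It had 81.3, 95.5 and 80.6 CPM in KO and 97.5, 104 and 87.6 in WT, with a log2 fold change of −0.17 (SE 0.13, adjusted p = 0.368). Its KO range overlapped the WT range, and KO1 was close to KO3. *Bub1*, the kinase that recruits other checkpoint proteins, had 9.91, 19.6 and 17.4 CPM in KO and 8.85, 11.3 and 14.3 in WT, and its log2 fold change was 0.44 (SE 0.29, adjusted p = 0.288). KO2 and KO3 were above every WT library and KO1 lay between WT1 and WT2, and without KO1 the value was 0.68 (adjusted p = 0.0480). Leaving out KO2 gave 0.26 (adjusted p = 0.575). *Bub1b* and *Mad2l1*, whose proteins hold back the anaphase-promoting complex, gave 0.16 and 0.12.

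The 4 genes of anaphase onset lay on both sides of 0. *Pttg1*, which encodes securin, the inhibitor of separase, had 7.08, 11.04 and 9.06 CPM in KO and 13.1, 12.5 and 17.5 in WT. All KO libraries were below all WT libraries in CPM. In TPM they overlapped, with 5.56, 9.39 and 8.62 in KO and 10.8, 8.55 and 13.5 in WT. The mean was 9.06 ± 1.98 CPM in KO and 14.4 ± 2.76 in WT (SD, n = 3 each), and the log2 fold change of −0.67 (SE 0.22) missed the threshold with an adjusted p of 0.0657 in edgeR, whereas DESeq2 gave −0.68 with an adjusted p of 0.0270. In an exact two-sided permutation test of 3 libraries against 3, the p was 0.1, the smallest that this number allows. *Espl1*, which encodes separase itself, had 6.10, 10.5 and 10.4 CPM in KO and 5.44, 6.19 and 8.65 in WT, and its log2 fold change was 0.41 (SE 0.28, adjusted p = 0.311). *Cdc20*, an activator of the anaphase-promoting complex, had 9.93, 21.1 and 16.01 CPM in KO and 13.4, 12.3 and 16.9 in WT. The KO values spanned the WT values, with a log2 fold change of 0.14 (SE 0.28, adjusted p = 0.733). *Ube2c*, the ubiquitin-conjugating enzyme of the same complex, had 9.57, 19.99 and 14.1 CPM in KO and 12.4, 10.5 and 15.6 in WT. Its deposited TPM values (relative abundances corrected for transcript length) were 226, 115 and 85.5 in KO and 205, 147 and 188 in WT. KO1 was thus the highest KO library in TPM and the lowest in CPM, and KO2 was above KO3 in both. Exons of *Ube2c* overlap those of *Tnnc2*, a troponin gene of fast muscle on the opposite strand. *Tnnc2* had a mean of 0.436 CPM, and its TPM was 78.85, 24.2 and 14 in KO and 33.7, 23.1 and 63.5 in WT. The part of this overlap in the CPM or the TPM of *Ube2c* was not tested, and its TPM is left out when levels are compared between genes.

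**Figure D3:**
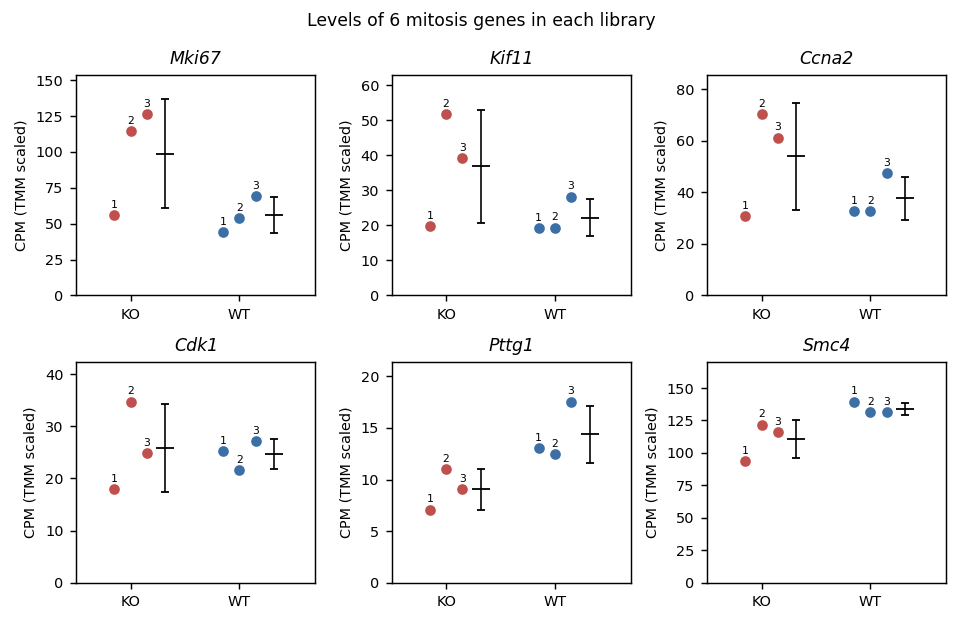
CPM (vertical axes, from 0) of 6 mitosis genes in each KO and WT library, with the library number above each point and the mean and SD (n = 3) beside each group. In *Mki67*, *Kif11* and *Ccna2*, KO2 and KO3 lie above all WT libraries and KO1 does not, whereas in *Pttg1* and *Smc4* all KO libraries lie below all WT libraries.

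The chromosomal passenger complex holds Aurora B at the centromere and then at the spindle midzone. *Incenp*, its scaffold, had 24.7, 45.0 and 35.2 CPM in KO and 36.3, 37.5 and 40.7 in WT. KO1 and KO3 were below and KO2 above the WT range, with a log2 fold change of −0.13 (SE 0.21, adjusted p = 0.691). *Birc5*, which encodes survivin, had 11.8, 27.6 and 22.3 CPM in KO and 11.6, 12.6 and 18.1 in WT. KO2 and KO3 were above every WT library and KO1 was among them, with a log2 fold change of 0.55 (SE 0.32, adjusted p = 0.240) and of 0.82 without KO1 (adjusted p = 0.0265). Leaving out KO2 gave 0.28 (adjusted p = 0.555). *Aurkb* and *Cdca8*, the kinase and the borealin subunit, gave −0.09 and 0.23.

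Of the 7 genes of the centromere and outer kinetochore, 6 had a log2 fold change above 0. *Nuf2*, a subunit of the NDC80 complex that grips microtubules, had 15.9, 29.8 and 27.2 CPM in KO and 13.6, 13.6 and 19.9 in WT. KO1 lay within the WT range and KO2 and KO3 above it, and the log2 fold change was 0.63 (SE 0.27, adjusted p = 0.120). Its partners in the complex were *Ndc80* at 0.63, *Spc25* at 0.24 and *Spc24* at −0.11, none of which passed the threshold with all libraries. *Ndc80* passed it without KO1, at 0.92 (adjusted p = 0.0124). *Cenpf*, a large kinetochore and nuclear matrix protein, had 23.1, 46.3 and 54.1 CPM in KO and 29.6, 31.5 and 38.9 in WT. KO1 was the lowest and KO3 the highest of the 6 libraries, with a log2 fold change of 0.31 (SE 0.29, adjusted p = 0.471) and of 0.59 without KO1 (adjusted p = 0.0295). Leaving out KO3 gave 0.065 (adjusted p = 0.9). *Cenpa*, the histone variant that marks centromeres, gave 0.03, and *Cenpe*, a kinesin of the kinetochore, gave 0.24.

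Among 8 spindle motors and microtubule binders, *Kif11*, the kinesin that pushes the spindle poles apart, had 19.8, 51.6 and 39.1 CPM in KO and 19.2, 19.3 and 28.2 in WT. KO1 was level with WT1 and WT2, whereas KO2 and KO3 were above every WT library. The log2 fold change was 0.73 (SE 0.33, adjusted p = 0.145), 1.02 (adjusted p = 0.00956) without KO1 and 0.41 (adjusted p = 0.377) without KO2. *Tpx2*, which activates Aurora A on the spindle, had 35.6, 63.8 and 68.0 CPM in KO and 42.7, 53.9 and 54.6 in WT, and its log2 fold change was 0.15 (SE 0.24, adjusted p = 0.685). Its KO2 and KO3 values lay above and its KO1 value below the WT range. The chromokinesins *Kif4* and *Kif22* gave 0.67 and 0.36, *Nusap1*, a microtubule bundler, gave 0.46, and *Kif2c*, a microtubule depolymerase, gave 0.26. *Kif18a* gave −0.01 and *Hmmr* −0.33.

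In the midzone and at cytokinesis, the 2 genes with the most reads were *Prc1* and *Racgap1*. *Prc1*, which bundles the antiparallel microtubules of the midzone, had 52.6, 74.1 and 69.1 CPM in KO and 51.8, 49.3 and 57.5 in WT. KO1 lay within the WT range and the other KO libraries above it, with a log2 fold change of 0.30 (SE 0.15, adjusted p = 0.184) and of 0.43 without KO1 (adjusted p = 0.0423). Leaving out KO2 gave 0.21 (adjusted p = 0.391). *Racgap1*, a subunit of centralspindlin, had 62.4, 104 and 81.9 CPM in KO and 92.0, 79.3 and 92.3 in WT. KO1 was below and KO2 above the WT range, and the log2 fold change was −0.09 (SE 0.19, adjusted p = 0.766). *Kif23*, the other subunit of centralspindlin, gave 0.06, *Ect2*, which centralspindlin recruits, gave 0.31 and *Anln*, which encodes anillin of the contractile ring, gave −0.16. The kinesins *Kif20a* and *Kif20b* gave 0.28 and 0.57.

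The genes of condensin and chromosome structure held the highest fold change of the 50 genes. *Mki67*, which encodes the proliferation marker Ki-67, a protein that coats mitotic chromosomes, had 55.9, 115 and 126 CPM in KO and 44.3, 53.8 and 69.4 in WT. KO1 lay within the WT range and KO2 and KO3 were above every WT library. The mean was 98.9 ± 37.7 CPM in KO and 55.8 ± 12.7 in WT (SD, n = 3 each), and the log2 fold change of 0.82 (SE 0.30) had an adjusted p of 0.0860 in edgeR. DESeq2 gave 0.81 with an adjusted p of 0.0377, and edgeR without KO1 gave 1.10 with an adjusted p of 0.00428. It did not pass in limma-voom (0.76, adjusted p = 0.114) or in edgeR without KO2 (0.71, adjusted p = 0.179) or KO3 (0.62, adjusted p = 0.232). Leaving out a WT library gave adjusted p-values of 0.120 to 0.261. *Top2a*, the topoisomerase that untangles sister chromatids, had 93.2, 167 and 147 CPM in KO and 90.5, 93.7 and 117 in WT. Its log2 fold change was 0.44 (SE 0.22, adjusted p = 0.186), and 0.64 (adjusted p = 0.0176) without KO1, which again lay within the WT range.

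The core ATPases of condensin, which act as a pair, had different values. *Smc2* had 19.9, 47.9 and 49.5 CPM in KO and 19.3, 22.2 and 30.2 in WT, with a log2 fold change of 0.71 (SE 0.34, adjusted p = 0.164) and of 1.02 without KO1 (adjusted p = 0.00682). *Smc4* had 93.7, 122 and 116 CPM in KO and 139, 131 and 131 in WT, with a log2 fold change of −0.28 (SE 0.14, adjusted p = 0.171). All KO libraries were below all WT libraries for *Smc4* (exact two-sided permutation test, p = 0.1, the smallest possible), whereas KO2 and KO3 were above every WT library for *Smc2*. The non-SMC subunits *Ncapg*, *Ncaph* and *Ncapd2* gave 0.61, 0.10 and 0.02. Whether *Smc2* and *Smc4* differed from each other in their change was not tested.

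Levels between genes were compared per transcript length, in TPM. Apart from *Ube2c*, the highest mean TPM over the 6 libraries was 30.6 for *Bub3*, followed by 20.8 for *Smc4* and 19.4 for *Racgap1*, and the lowest was 0.793 for *Espl1*. The lowest count of any of the 50 genes in a library was 108 and the highest was 7285. The exons of 11 of the 50 genes overlap those of a tested gene on the opposite strand, among them *Ccna2*, *Cdc20*, *Cdc25b*, *Prc1* and *Ube2c*, and the use of strand in the counting is not given in the sources used here, so reads of the partners cannot be told apart. Of the 17 genes past the threshold without KO1, 6 are among these 11. Named pseudogenes of *Kif22*, *Kif4* and *Ccnb2* had at most 56 counts in a library.

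Fold changes were set beside the promoter motifs. The 31 genes with TTTGAA had a median log2 fold change of 0.27 (−0.38 to 0.82) and the 11 genes with a window but without it a median of 0.12 (−0.67 to 0.63). KO2 exceeded KO1 by a median of 2.05-fold in the former and 1.97-fold in the latter. Of the 17 genes higher without KO1, 15 have a window. They were 11 of the 31 genes with TTTGAA and 4 of the 11 without it. Of all 42 genes with a window, 31 hold TTTGAA (73.8%). *Nuf2*, whose printed stretch holds neither motif, had its KO libraries placed about WT in the same order as *Kif11*, whose stretch holds both.

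Other mitosis genes, 119 genes in 8 lists that share none of the 50, were measured in the same fit. Of these, 14 passed the threshold (11.8%, against 22.7% of all tested genes), 9 higher and 5 lower, and the median log2 fold change of the 119 was 0.14. The count was 34 without KO1, 8 without KO2 or WT2, 6 without KO3 or WT3 and 5 without WT1. The share of all tested genes that passed was 30.6% without KO1, 17.7% without KO2, 13.9% without KO3, 6.01% without WT1, 13.6% without WT2 and 8.43% without WT3. KO1 was the lowest KO library in 86 of the 119 and below all other libraries in 38, against 37 of the 50 and 13.7% of all tested genes. The largest rises were in *Mybl2* (log2 fold change 1.60, adjusted p = 0.0271), which encodes B-Myb, the MuvB partner that activates mitosis genes, in *Trip13* (1.55, adjusted p = 0.0184), a checkpoint remodeller, and in *Ncapg2* (1.48, adjusted p = 0.00568), a subunit of condensin II. *Mybl2* had 1.99, 3.37 and 4.54 CPM in KO and 0.752, 1.43 and 1.08 in WT, so that all KO libraries were higher. The largest falls were in *Psrc1* (−2.68, adjusted p = 0.00166), a spindle microtubule protein, in *Cenpw* (−1.02, adjusted p = 0.0459) and in *Gtse1* (−0.98, adjusted p = 0.0424), a microtubule-binding regulator of p53. *Psrc1* had 6.02, 10.9 and 9.42 CPM in KO and 71.1, 43.0 and 55.5 in WT, with no overlap. The calls of *Mybl2*, *Trip13*, *Cenpw* and *Gtse1* were lost when a library was left out (highest adjusted p 0.112, 0.0883, 0.137 and 0.157), whereas *Psrc1* and *Ncapg2* passed in every such fit (highest adjusted p 0.0118 and 0.0357).

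The genes of DNA replication and S phase, which act before mitosis, had a median above the WT mean in every KO library. Of 44 tested genes, 18 passed the threshold, which is 40.9% against 22.7% of all tested genes, 17 higher and 1 lower (*Gins4*, −0.52), with a median log2 fold change of 0.64. The count was 29 without KO1, 10 without KO2 or WT2, 9 without KO3, 4 without WT1 and 5 without WT3, where the share of all tested genes was 30.6% without KO1, 6.01% without WT1 and 8.43% without WT3. Their median log2 ratio to the WT mean was 0.22, 0.78 and 0.74 for the KO libraries, where the 50 mitosis genes had −0.49 in KO1. *Rrm2*, the ribonucleotide reductase subunit made in S phase, had 307, 156 and 212 CPM in KO and 73.0, 52.9 and 70.9 in WT, and its log2 fold change was 1.78 (SE 0.26, adjusted p = 0.00488), and here KO1 was the highest library. *Chaf1b*, a histone chaperone subunit, gave 1.51 (adjusted p = 0.0240) and *Ccne2*, a cyclin of S phase entry, gave 1.41 (adjusted p = 0.00829). With a library left out, the calls of *Chaf1b* and *Gins4* were lost (highest adjusted p 0.102 and 0.117), whereas *Rrm2* and *Ccne2* passed in every such fit (highest 0.0281 and 0.0463). The difference between the lists was not tested.

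**Figure D4:**
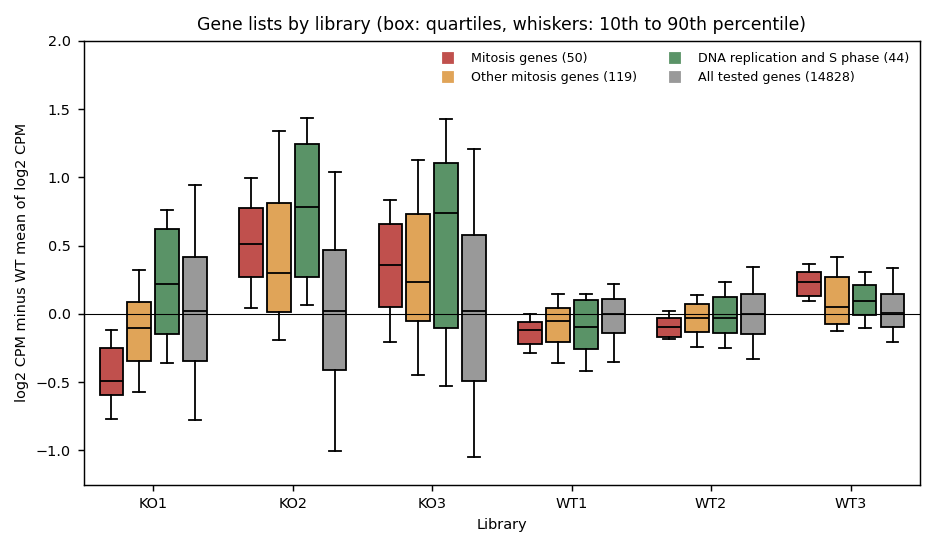
Log2 CPM minus the WT mean of log2 CPM (vertical axis) by library (horizontal axis), for the 50 mitosis genes, 119 other mitosis genes, 44 genes of DNA replication and S phase and all 14828 tested genes, with boxes for the quartiles, a line for the median and whiskers from the 10th to the 90th percentile. In KO1 the median of the mitosis genes is −0.49 and that of the S phase genes is 0.22, whereas in KO2 they are 0.51 and 0.78.

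Of 18 tested genes of cell cycle exit, 8 passed the threshold (44.4%, against 22.7% of all tested genes), 3 higher and 5 lower. The count was 9 without KO1, 4 without KO2, KO3 or WT2 and 2 without WT1 or WT3, where the share of all tested genes was 30.6% without KO1, 13.6% to 17.7% without KO2, KO3 or WT2, 6.01% without WT1 and 8.43% without WT3. *Cdkn1c*, which encodes the inhibitor p57, was higher (1.78, adjusted p = 0.0397), with 42.4, 217 and 116 CPM in KO and 28.6, 39.5 and 41.3 in WT. *Ccnd1* and *Rbl1* were higher as well (1.21 and 0.63). *Ccnd2*, a D-type cyclin, was lower (−2.90, adjusted p = 0.0420), with 21.6, 2.91 and 3.15 CPM in KO and 39.1, 118 and 47.9 in WT. Leaving out KO1 gave −4.50 (adjusted p = 0.000786). The inhibitors *Cdkn2d* and *Cdkn1b*, which encode p19 and p27, were lower (−1.16 and −1.13), and *Cdkn1b* had 99.8, 122 and 97.5 CPM in KO against 285, 177 and 239 in WT. Of these 6, only *Cdkn1b* passed the threshold with each library left out in turn, with an adjusted p of at most 0.0404. The other 5 reached 0.0654 for *Ccnd1* and up to 0.148 for *Cdkn1c*.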

How the data were processed

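RNA-seq of 3 KO and 3 WT libraries of C2C12 cells was used. Total RNA was depleted of ribosomal RNA, and the authors aligned reads with STAR and counted them with featureCounts, per the submitters' processing notes. They deposited 1 table of raw counts per gene with no normalization, and 0 of its sample columns were left unused. They also deposited StringTie TPM values per library. The methods name the build GRCm39 and the processing notes mm9, whereas the deposited gene positions overlap those of the same genes on GRCm38 in 99.838% of 45137 genes, so positions are given on GRCm38. Versions, annotation and strand setting are not given in the sources used here.

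Counts were scaled by TMM (trimmed mean of M-values), filtered with filterByExpr (14828 of 46078 genes) and tested with edgeR 4.0.16 (two-sided quasi-likelihood test, genotype alone) in R 4.3.3, with Benjamini-Hochberg adjustment over all tested genes and a threshold of 0.05. DESeq2 1.42.0, limma-voom (limma 3.58.1) and limma on log2(TPM + 1) or log2(TPM + 0.1) were alternatives, with other scalings, filters and omitted libraries. Log2 ratios between single libraries and their SDs used CPM plus 0.05 and permutation tests used the same scale. Ratios in the plot by gene used CPM without it. TMM factors were 0.949 to 1.08. Each mitosis gene had at least 108 counts in every library, and counting error was not separated from the spread between libraries.

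In the 9 roles, values were given in full for the gene with the highest mean CPM and the gene with the smallest p, and at most 3 called genes in each direction were named in other lists. *Cdk1*, *Ccnb1*, *Ccnb2*, *Espl1*, *Ube2c*, *Smc2* and *Top2a* were chosen after their values were seen. The members and lists were chosen with earlier results of these data known. All 264 listed genes were found in the table, most by name and some, such as *Mymk*, *Knl1* and *Wapl*, by gene ID. On simulated counts for the comparison of KO with WT, edgeR recovered 186 of 195 changed genes with 7 false calls among 14645 genes. The simulation gave every gene the same dispersion and had no library that stood apart. Its changes were larger than any log2 fold change of the 50 genes with all libraries. It therefore does not measure how many mitosis genes could have been called.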

Additional observations from a re-analysis of the deposited data

How the results depend on the processing

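For the 17 mitosis genes described with full values by rule, 272 values were computed under 16 alternatives. Of these, 248 kept their direction and their side of the threshold, 18 came to pass it and 6 changed sign, in 4 genes. With library totals in place of TMM, *Incenp* was 0.0040 and *Racgap1* 0.0429. Leaving out each library in turn gave ranges of −0.12 to 0.38 for *Cdc20*, −0.34 to 0.0667 for *Incenp*, −0.0155 to 0.38 for *Tpx2* and −0.28 to 0.0766 for *Racgap1*. The number of mitosis genes called was 2 in DESeq2, 6 with no filter on low counts, and 0 to 17 with a library left out, and their median log2 fold change was 0.004 to 0.419 with a library left out. All genes called were 933 to 4712 with a library left out (6.01% to 30.6%) and 2114 of 11691 with log2(TPM + 0.1) (18.1%). The share was 20.2% with log2(TPM + 1). Other mitosis genes called were 5 to 34 with a library left out and 23 with no filter (15.0% of all genes). The TPM fits tested 104 other mitosis genes and called 8 with log2(TPM + 1) and 8 with log2(TPM + 0.1). S phase genes called were 4 to 29 with a library left out and 8 of 38 tested with log2(TPM + 0.1). Cell cycle exit genes called were 2 to 9 with a library left out. The cause was not tested. Library totals moved the median of all genes by 0.116 on the log2 scale. The share of called genes that were higher was 53.4% with TMM, 66.2% with library totals and 41.8% with log2(TPM + 1). The replicate numbers share no stated origin, and deviations of same-numbered libraries correlated at 0.137, −0.116 and 0.004 across genes. With the replicate number as a block, 1 mitosis gene was called (*Mki67*, 0.76, adjusted p = 0.0394), against 17.0% of all genes.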
